A study of Sus scrofa with 16 samples.

Results

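CD79A, CD79B, MS4A1, BANK1, POU2AF1 and BCL6 are 6 of the 25880 genes counted in single cells of the pig small intestine. They were taken by gene symbol as genes of the B cell receptor and of the germinal centre. All 6 were found, BANK1 through an identifier (ENSSSCG00000022361) whose symbol came from a table of gene names, and all 6 had UMIs in B cells. A UMI, or unique molecular identifier, marks 1 captured RNA molecule.

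The cells came from female mixed-breed pigs aged 7.5 weeks, with no treatment named in the labels. Ileum was dissected into tissue that held Peyer's patches (IPP) and tissue that lacked them (NoPP), and duodenum (DUOD) and jejunum (JEJ) were also sampled. Cells were released with dithiothreitol and EDTA, which loosen mucus and epithelium, and passed through a density gradient, so the B cells are those that these steps freed. Each region has 4 sample titles but 1 pooled count matrix whose barcodes carry no title, so each region counts as 1 sample. There is therefore no replicate check of any difference here, no p-value is given, and the 95% intervals cover counting error only.

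CD79A and CD79B are the paired signalling chains of the B cell receptor, which carries antigen signals from the surface immunoglobulin into the cell. After antigen contact in a follicle, B cells can form a germinal centre, where they divide, mutate their antibody genes and compete for help from follicular T cells. Peyer's patches are the gut lymphoid organs in which such follicles lie. These roles are known mainly from mice and humans.

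The 4 matrices held 44726845 to 91813234 UMIs each, and 6928 barcodes were kept. IPP gave 3187 of them, NoPP 2049, JEJ 978 and DUOD 714. Median depth ran from 3651 UMIs per kept cell in NoPP to 4411 in IPP. Clusters were built without the 6 genes and named from other markers. B-like cells, in which all 12 B cell markers of the files were detected, PAX5 and CD22 among them, numbered 1167 in IPP, which was 36.6% of its cells (interval 34.9 to 38.3). They numbered 55 in NoPP (2.68%), 12 in JEJ and 1 in DUOD. None of the 12 barcodes kept in more than 1 region was B-like, and 121 NoPP barcodes with far more UMIs in another library had been left out.

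Outside the B lineage the 6 genes were mostly at background, with 3 exceptions. Levels are given as CPM, the UMIs of a gene out of every 1000000 UMIs, both summed over the cells of a group, and background was read from barcodes of 10 to 100 UMIs, which hold free RNA rather than cells. In IPP, CD79B stood at 750 CPM in B-like cells, at 6.55 CPM in T or innate lymphoid-like cells and at 6.82 CPM in epithelial cells. The low-UMI barcodes of IPP had 111 CPM of CD79B, so its level in the non-B cells is read as background. MS4A1, which encodes the surface protein CD20, stood at 740 CPM in B-like, 4.37 CPM in T or innate lymphoid-like and 96.9 CPM in low-UMI barcodes of IPP. In NoPP, MS4A1 had 0 UMIs in 1712 T or innate lymphoid-like cells, which allows up to 0.448 CPM at 3 UMIs. POU2AF1, the coactivator that works with octamer-binding factors on immunoglobulin promoters, stood at 259, 3.87 and 49.3 CPM in the same 3 groups of IPP.

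The first exception was BANK1, the gene of a scaffold protein that binds the kinase LYN downstream of the receptor. It stood at 75.5 CPM (interval 48.8 to 111) in the myeloid-like cells of DUOD, 64.8 CPM in JEJ, 54.6 CPM in IPP and 29.4 CPM in NoPP. Low-UMI barcodes had 0.995 to 5.72 CPM of BANK1. The BANK1 UMIs lay mostly in 1 cluster of 112 cells led by APOE, C1QA and CXCL14, which also had collagen genes among its leading genes, at 69.2 CPM (53.7 to 87.7). In its 42 DUOD cells BANK1 had 25 UMIs while CD79A and CD79B had 0 each. B-like cells were at 70.9 CPM of BANK1 in IPP, so the interval of this cluster covers the level of all B-like cells together.

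The second was BCL6, the gene of the transcriptional repressor that germinal centre B cells and follicular helper T cells both need. A T cell cluster of 156 cells led by PDCD1, CTLA4 and ICOS held 60.7 CPM of BCL6 (43.1 to 82.9), with a UMI in 14.7% of its cells. It stood at 66.5 CPM in the 119 IPP cells of this cluster and at 55.1 CPM on 8 UMIs in the 30 NoPP cells, and the intervals overlap. BCL6 was not confined to this cluster. The cluster led by TRDC, described below, held 26.3 CPM (20.9 to 32.6), with a UMI in 10.1% of its cells. In its 337 NoPP cells BCL6 was at 30.0 CPM (21.8 to 40.2). The cluster with APOE and C1QA held 21.4 CPM (13.2 to 32.7), with a UMI in 13.4% of its cells. Across all T or innate lymphoid-like cells BCL6 ran from 10.5 CPM in DUOD to 20.6 CPM in NoPP. The low-UMI level was 9.58 CPM in DUOD, 1.99 CPM in JEJ, 17.6 CPM in IPP and 2.67 CPM in NoPP. The class therefore lay above background in JEJ, at 11.4 CPM (7.61 to 16.5), and in NoPP, while in DUOD and IPP the intervals overlap.

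The third was CD79A. It stood at 5.26 CPM in the T or innate lymphoid-like cells of DUOD, 8.18 CPM in JEJ, 10.2 CPM in IPP and 6.27 CPM in NoPP. Low-UMI barcodes had 3.19, 0.746, 7.62 and 1.07 CPM in the same order. The intervals of the class and of the low-UMI barcodes were apart in JEJ and NoPP and overlapped in DUOD and IPP. The UMIs were most frequent in a cluster of 744 cells led by TRDC, the delta chain gene of the gamma delta T cell receptor, at 16.7 CPM (12.4 to 21.8). The same cluster held CD79B at 3.20 CPM. CD79A stood at 28.1 CPM (19.1 to 39.8) in its 272 IPP cells and at 8.85 CPM (4.71 to 15.1) in its 337 NoPP cells.

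**Figure D1:**
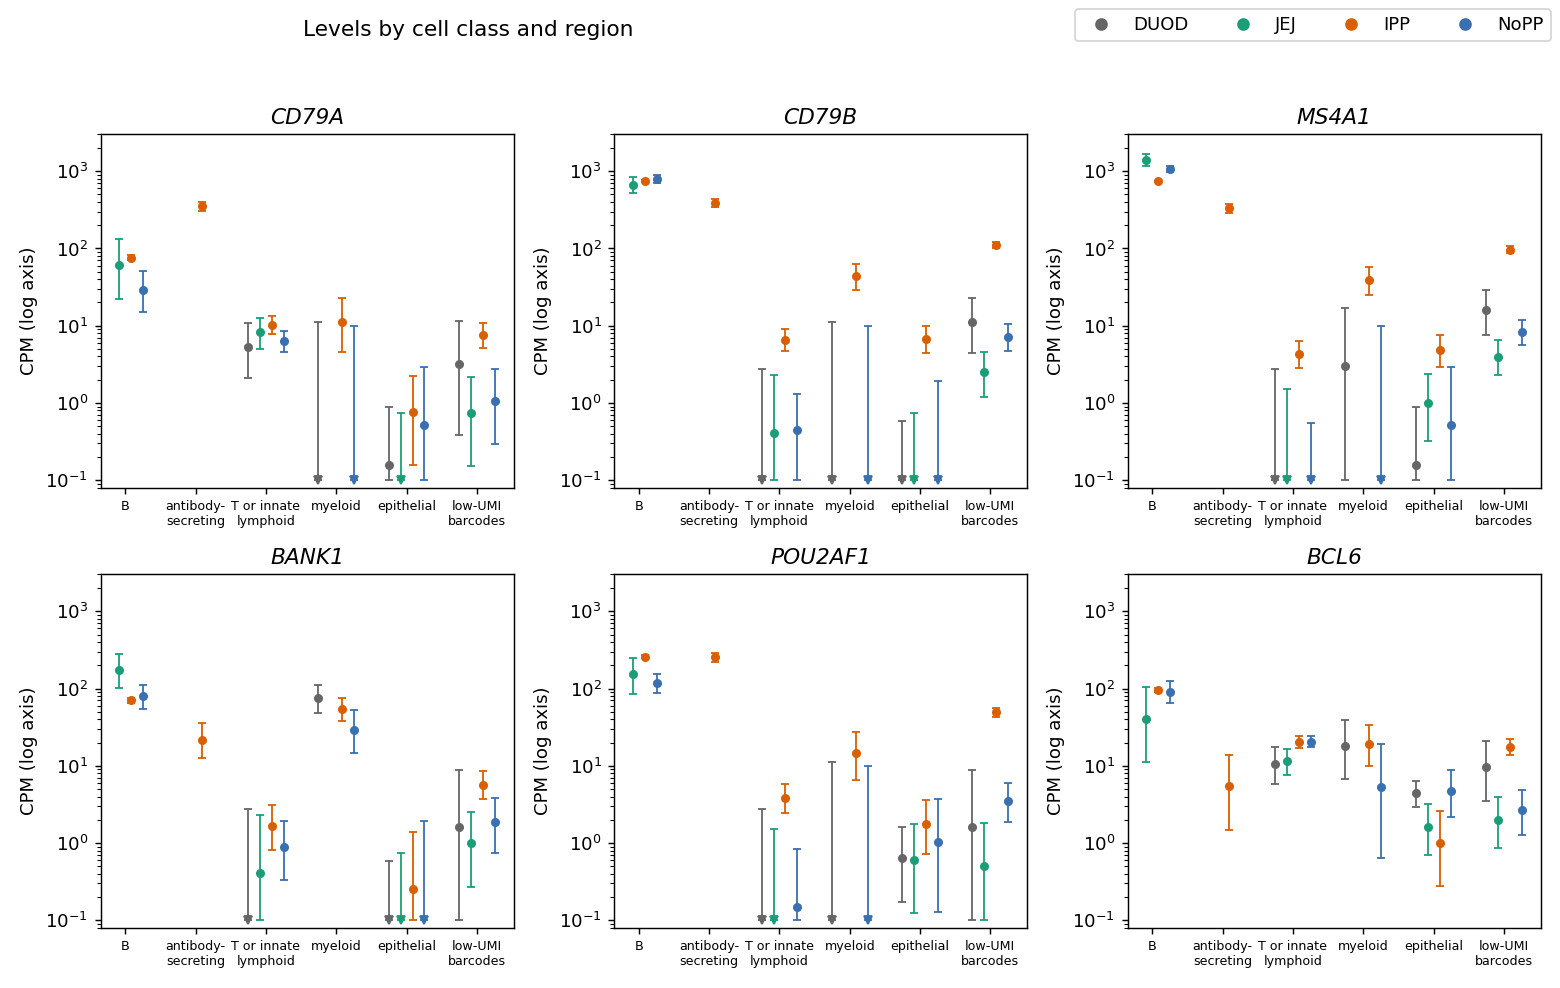
Levels of the 6 genes in CPM on a log axis, by cell class (horizontal) and region (colour), with exact 95% Poisson intervals; groups of under 10 cells are left out and triangles at the axis floor mark 0 UMIs. In IPP, B-like cells stand highest for 5 of the genes and antibody-secreting cells for CD79A, while BANK1 also stands at 54.6 CPM in myeloid-like cells.

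Within the B-like cells of IPP, 404 were dividing, taken as 3 or more UMIs of TOP2A, CENPF and TPX2 together. That was 34.6% of the B-like cells (31.9 to 37.4). Of the rest, 377 had a UMI of CCR7, a homing receptor, or of KLF2, a factor of quiescent recirculating lymphocytes, and 386 had neither. Depth differed between the states, with medians of 11806, 5673 and 4403 UMIs per cell, so levels are given as CPM and shares of cells are also given after thinning every cell to 2000 UMIs. In NoPP the same states held 14, 24 and 17 cells.

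CD79A, CD79B and MS4A1 differed by less than 2-fold between the states. CD79A stood at 61.4 CPM (55.2 to 68.0) in dividing cells, 88.1 CPM (76.8 to 101) in cells with CCR7 or KLF2 and 105 CPM (91.5 to 121) in cells with neither. CD79B stood at 656, 732 and 1056 CPM in the same order. MS4A1 stood at 715, 654 and 926 CPM. All 3 had their highest value in nondividing cells with neither gene, but the CD79A intervals of the nondividing states overlap, and no gene of the 3 differed by 2-fold between states.

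The other 3 genes separated the states. BANK1 stood at 32.1 CPM (27.7 to 37.0) in dividing cells, 164 CPM (148 to 180) with CCR7 or KLF2 and 69.3 CPM (58.1 to 82.1) with neither. BCL6 ran the other way, at 128 CPM (119 to 138), 21.7 CPM (16.3 to 28.3) and 91.0 CPM (78.1 to 105). POU2AF1 stood at 296 CPM (282 to 310), 142 CPM (128 to 158) and 295 CPM (272 to 320). Cells with CCR7 or KLF2 were thus highest in BANK1 and lowest in BCL6 and POU2AF1, and POU2AF1 was level between the dividing cells and those with neither.

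The shares of cells with a UMI gave the same order for BANK1 and BCL6 after thinning. BCL6 was seen in 21.6% of 398 dividing cells (17.7 to 26.0), 4.14% of 362 cells with CCR7 or KLF2 (2.34 to 6.74) and 15.1% of 352 cells with neither (11.5 to 19.2). Without thinning the shares were 63.9, 10.9 and 30.6%. BANK1 was seen in 4.02, 27.9 and 9.94% of the thinned cells and in 13.4, 52.8 and 17.1% of the unthinned cells. Thinning left out 6, 15 and 34 cells below 2000 UMIs. For comparison, epithelial cells of IPP, with a median of 14565 UMIs, had a UMI of BANK1 in 0.375% and of BCL6 in 1.50% of 267 cells. IPP was the lowest region for BCL6 in epithelial cells. It was seen in 8.70% of 276 in DUOD, 2.42% of 331 in JEJ and 4.22% of 166 in NoPP. BANK1 had 0 UMIs in the epithelial cells of DUOD, JEJ and NoPP.

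**Figure D2:**
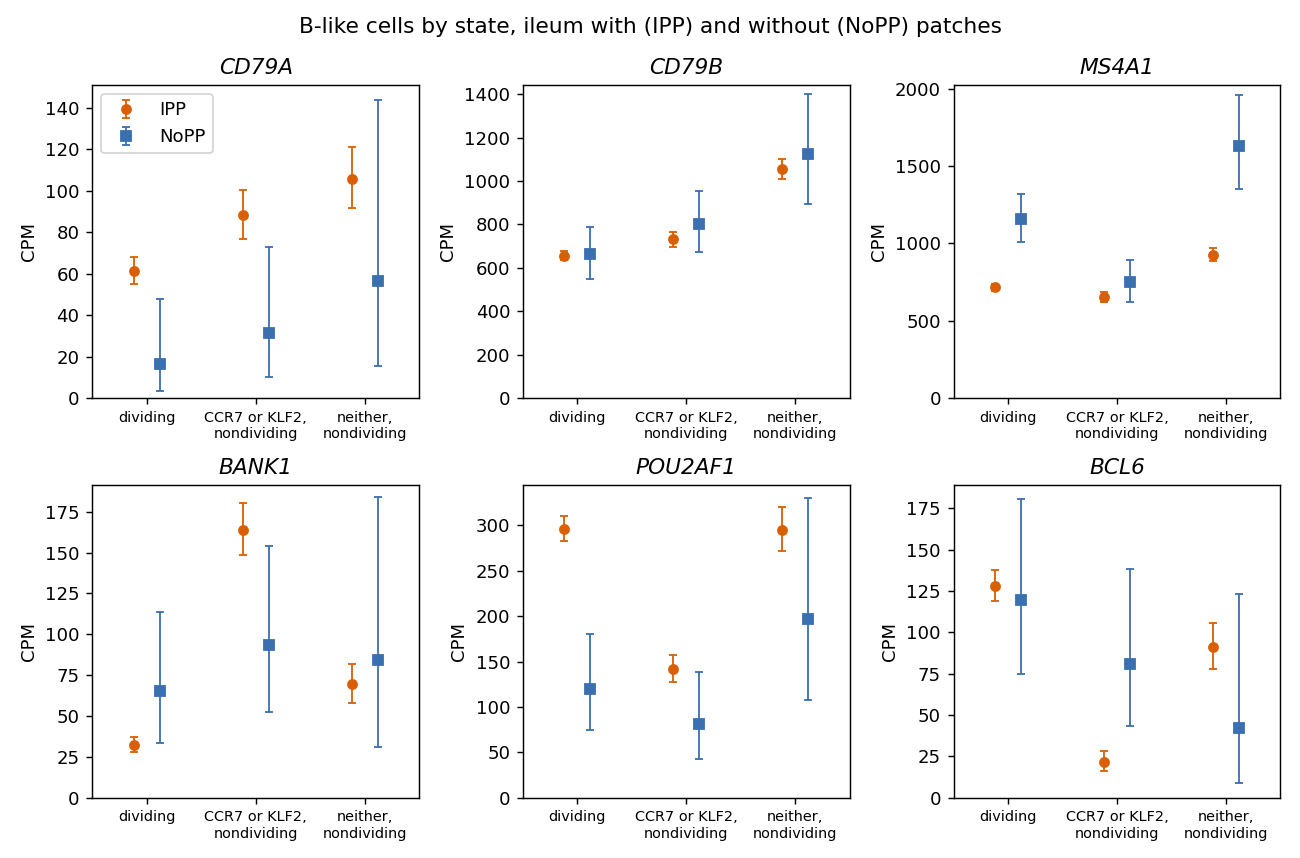
Levels of the 6 genes in CPM (vertical, from 0) in B-like cells by state, for IPP (circles; 404, 377 and 386 cells) and NoPP (squares; 14, 24 and 17 cells), with exact 95% Poisson intervals. In IPP, BANK1 peaks in cells with CCR7 or KLF2 where BCL6 and POU2AF1 are lowest, and the NoPP intervals are wide.

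Set against all nondividing B-like cells of IPP, dividing cells had 2.46-fold more BCL6 (2.12 to 2.86) and 1.42-fold more POU2AF1 (1.31 to 1.54). BANK1 was 3.81-fold lower (3.22 to 4.52), CD79A 1.56-fold lower (1.35 to 1.80), CD79B 1.33-fold lower and MS4A1 1.08-fold lower. Differences of at least 2-fold, among genes with 50 CPM or more in 1 of the groups, are counted below. Of the 6 genes 2 reached this, BCL6 upward and BANK1 downward, where 20.9% of the 2946 genes compared did, 13.9% higher and 7.03% lower. That count of members is close to the background. The median log2 difference was -0.26 over the 6 genes and 0.25 over all genes compared. Over 14 other settings the log2 difference ran from 1.03 to 1.68 for BCL6 and from -3.72, at a mitochondrial limit of 10%, to -1.71 for BANK1. CD79A, CD79B and MS4A1 each changed sign under 1 setting, to 0.09, 0.03 and 0.29.

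Other genes of the same pathways are described from lists. Among 24 genes of receptor signalling, 2 were at least 2-fold lower in dividing cells, BANK1 and FCMR, an IgM receptor, and 0 were higher. The kinase gene SYK stood at 179 against 222 CPM. Of 18 germinal centre genes compared, 7 were at least 2-fold higher, among them BCL6, and CD38 was lower. The histone methyltransferase gene EZH2 was at 135 against 31.9 CPM, MYBL1 at 205 against 59.1 CPM, and MEF2B, a regulator upstream of BCL6, at 200 against 81.9 CPM. The list medians were -0.24 for receptor signalling and 0.66 for the germinal centre, on the log2 scale. All 16 cell division genes in the files were higher, but 3 of them define the state.

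The levels were also read along the division score itself. In IPP, BCL6 stood at 48.7 CPM in the 617 cells with a score of 0, 49.0 CPM at 1, 82.0 CPM at 2, 42.9 CPM at 3 on 9 UMIs, 96.0 CPM at 4 to 9 and 139 CPM in the 270 cells at 10 or more. BANK1 stood at 134, 91.8, 82.0, 71.4, 39.8 and 28.7 CPM over the same bins, lower in each bin than in the one before it, though neighbouring intervals from 1 upward overlap. POU2AF1 lay between 180 and 242 CPM below the threshold of 3 and between 287 and 330 CPM at or above it. Depth rose along the score, from a median of 4549 UMIs at 0 to 13505 at 10 or more.

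**Figure D3:**
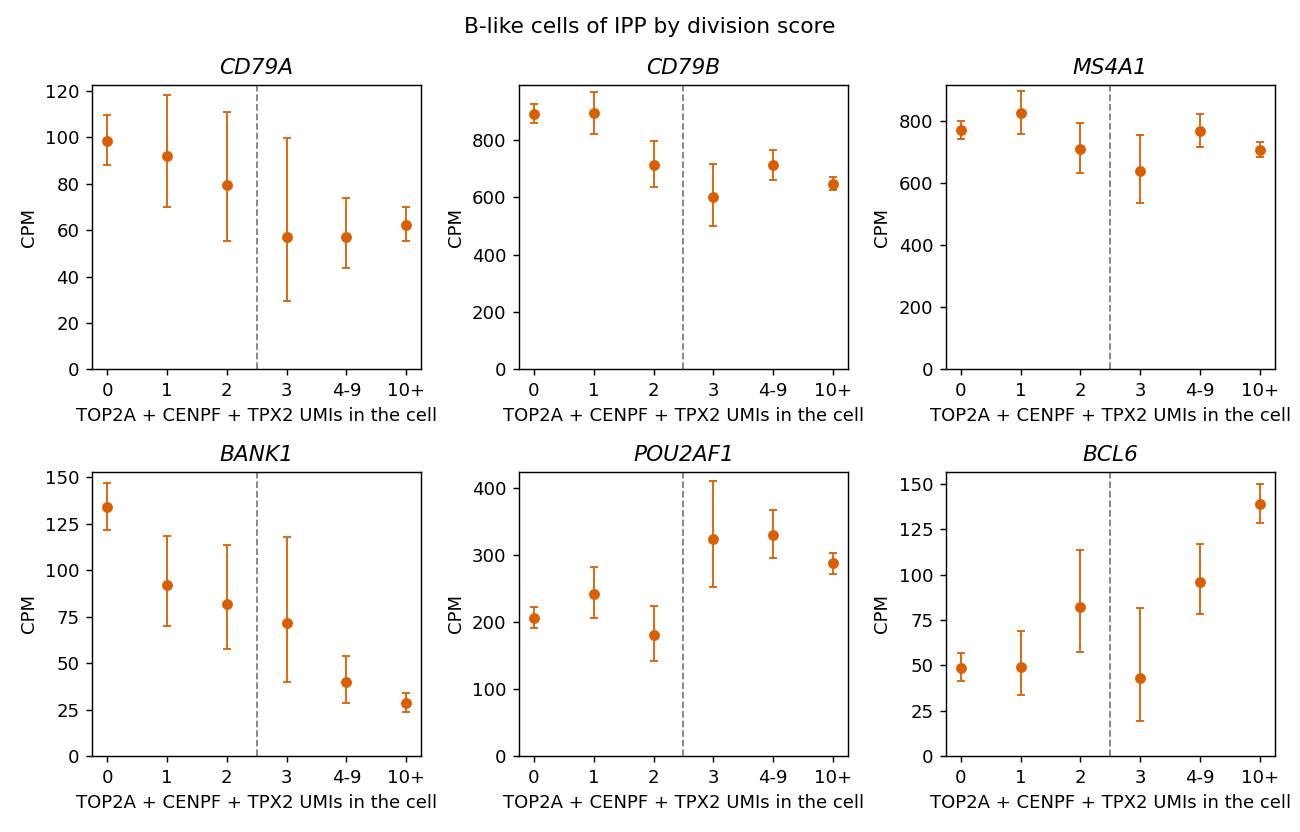
Levels of the 6 genes in CPM in B-like cells of IPP by division score, the number of TOP2A, CENPF and TPX2 UMIs in a cell (617, 93, 53, 24, 110 and 270 cells), with exact 95% Poisson intervals; the dashed line marks the threshold of 3. BANK1 is lower in each bin than in the one before, from 134 to 28.7 CPM, while BCL6 is highest at 10 or more.

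Among the nondividing cells of IPP, those with CCR7 or KLF2 had 2.36-fold more BANK1 (1.94 to 2.90) than those with neither. BCL6 was 4.19-fold lower (3.07 to 5.79) and POU2AF1 2.08-fold lower (1.82 to 2.38). CD79B was 1.44-fold lower, MS4A1 1.42-fold lower and CD79A 1.20-fold lower, the last with an interval that includes no difference (0.984 to 1.46). So 3 of the 6 genes passed 2-fold, against a background of 10.5% of 2666 genes, 3.15% higher and 7.39% lower. The median log2 difference was -0.52 over the 6 genes and -0.15 over all genes compared. BANK1 stayed between 1.07 and 2.21 and BCL6 between -2.15 and -1.04 on the log2 scale over 14 other settings. POU2AF1 sits at the 2-fold line, with log2 values of -0.99 to -0.11 under 3 of the settings. With B cells taken by a gate on single cells, CD79A, CD79B and MS4A1 turned to log2 differences of 0.89, 0.46 and 0.42. This gate took cells of any class that had UMIs of at least 2 B cell markers and none of the CD3 genes or JCHAIN.

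Either gene alone gave a like pattern. BANK1 stood at 171 CPM in 130 cells with CCR7 only, 176 CPM in 100 cells with KLF2 only and 146 CPM in 147 cells with both. BCL6 stood at 11.9, 37.4 and 24.1 CPM in these groups and POU2AF1 at 135, 150 and 146 CPM. CD79A was lower with CCR7 only, at 60.3 CPM (46.6 to 76.7), than with KLF2 only, at 109 CPM (83.2 to 140).

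Germinal centre genes were lower together in cells with CCR7 or KLF2. Of 18 compared, 12 were at least 2-fold lower, BCL6 and POU2AF1 included, and CD38 was higher. MYBL1 stood at 5.63 against 128 CPM, GCSAM, a germinal centre adaptor, at 17.7 against 179 CPM, and RGS13, a brake on chemokine receptor signalling, at 12.5 against 95.1 CPM. The list median was -1.64 on the log2 scale. Of 24 receptor signalling genes, BANK1 and FCMR were higher and DAPP1, an adaptor, was lower, with a list median of -0.19. Of 8 genes of resting and recirculating cells, 5 were higher, CCR7 and KLF2 by definition, with GPR183 and CD44 among the others. GPR183, which guides B cells to the outer follicle, stood at 654 against 250 CPM.

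The 3 B cell clusters gave a sharper division than the states. A cluster of 522 cells from all regions counted PHACTR1, CCR7 and NCF4 among its leading genes, and 3.67% of its IPP cells were dividing. A second of 300 cells was led by ZNF70, ZP3 and MAPK4, with 8.77% dividing. The last, of 413 cells, was led by division genes such as PCLAF and TOP2A, with 92.3% dividing. All 12 B cell markers were raised in each, but none was among the 10 leading genes of these last 2 clusters. BCL6 stood at 12.5 CPM (8.82 to 17.1) in the 473 nondividing IPP cells of the CCR7-led cluster, and at 142 CPM (122 to 165) in the 260 of the ZNF70-led one. Its level in the 361 dividing cells of the dividing cluster was 134 CPM (124 to 144), so the interval overlaps that of the ZNF70-led cluster.

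BANK1 showed the reverse. It stood at 176 CPM (162 to 192) in nondividing cells of the CCR7-led cluster, at 2.41 CPM on 3 UMIs in those of the ZNF70-led cluster, and at 25.0 CPM (21.0 to 29.6) in the dividing cells of the dividing cluster. The ratio of the CCR7-led to the ZNF70-led cells was 73.2 (24.9 to 356). The 18 dividing cells of the CCR7-led cluster had BANK1 at 203 CPM (152 to 265) and BCL6 at 3.82 CPM on 1 UMI. CD79B was at 313 CPM in these cells, 2.10-fold lower than in the nondividing cells of the cluster (1.69 to 2.66). In the 25 dividing cells of the ZNF70-led cluster BANK1 had 0 UMIs and BCL6 stood at 140 CPM (91.5 to 205).

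Inside the CCR7-led cluster, cells with CCR7 or KLF2 and cells with neither had like levels of BANK1. It was at 174 CPM (158 to 192) in 352 cells with either gene and at 183 CPM (153 to 218) in 121 cells with neither, a ratio of 0.951 (0.779 to 1.17). MS4A1 was at 638 and 637 CPM there. CD79B was higher with either gene, at 688 against 565 CPM, a ratio of 1.22 (1.09 to 1.36), though it was lower over all nondividing cells. BCL6 was low in both, at 15.0 CPM on 35 UMIs and at 4.20 CPM on 3 UMIs, a ratio of 3.57 (1.13 to 18.1) that runs against the one over all nondividing cells. In the ZNF70-led cluster BCL6 was at 130 CPM (76.8 to 205) in 24 cells with CCR7 or KLF2 and 144 CPM (122 to 168) in 236 with neither. BANK1 had 0 and 3 UMIs in these cells, too few to compare. The differences of BANK1 and BCL6 between the 2 states of all nondividing cells thus go with the clusters, of which 1 holds 352 of the 377 cells with CCR7 or KLF2 and the other 236 of the 386 with neither.

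CD79A, CD79B, MS4A1 and POU2AF1 also differed by cluster. CD79B was at 1427 CPM (1361 to 1495) in nondividing cells of the ZNF70-led cluster, 659 CPM (631 to 689) in those of the CCR7-led cluster and 663 CPM (642 to 685) in dividing cells of the dividing cluster. MS4A1 was at 1134, 637 and 707 CPM in that order and CD79A at 136, 81.0 and 61.6 CPM. POU2AF1 was at 371, 137 and 297 CPM. Of the groups given here, all 4 were highest in the nondividing cells of the ZNF70-led cluster, with intervals apart from those of the other 2 groups. The 25 dividing cells of that cluster had POU2AF1 at 458 CPM on 85 UMIs, a ratio of 1.24 (0.969 to 1.56) to its nondividing cells. CD79A, CD79B and MS4A1 were lower in these dividing cells.

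**Figure D4:**
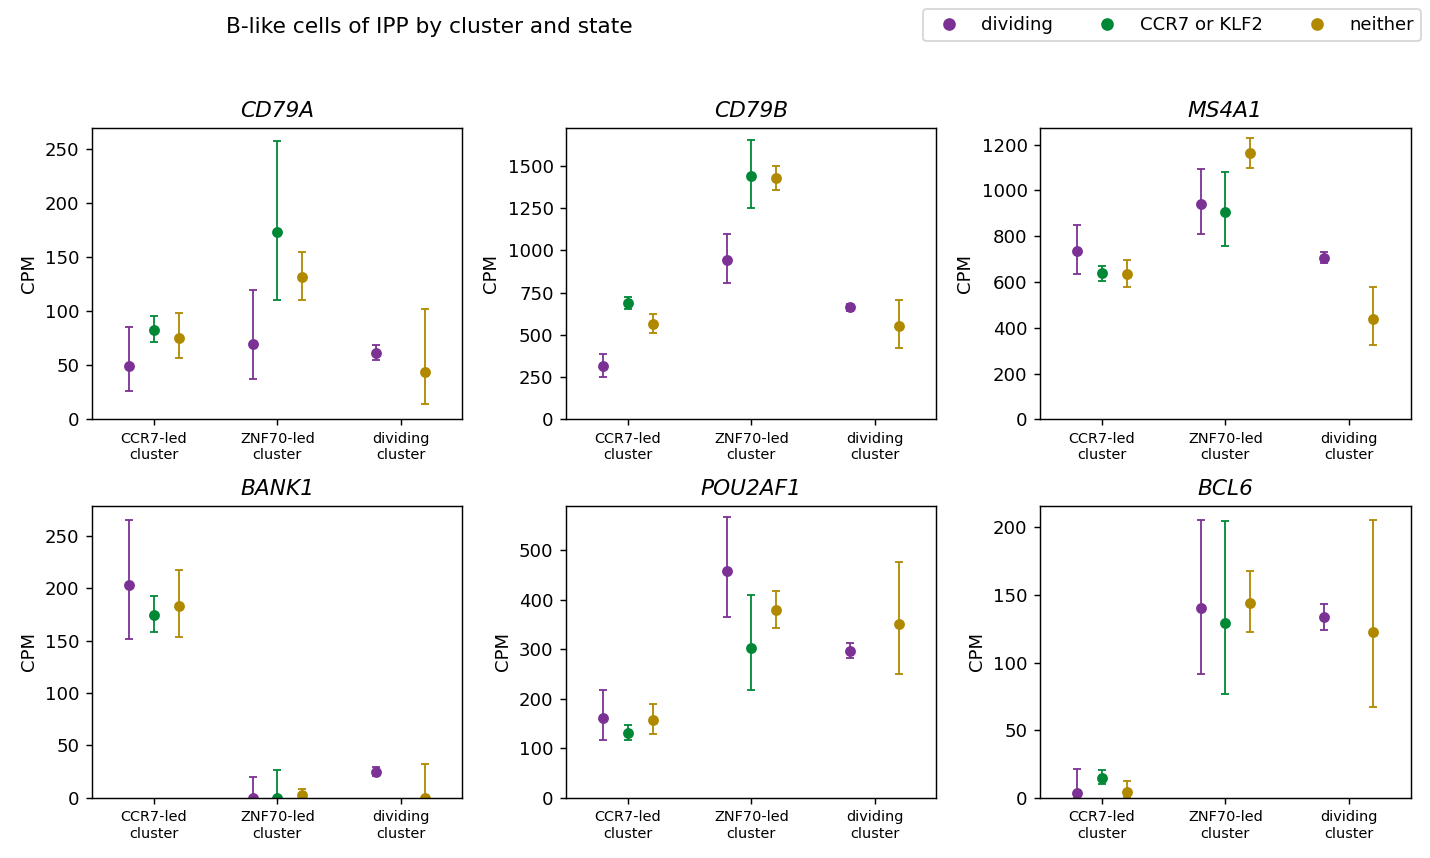
Levels of the 6 genes in CPM (vertical, from 0) in B-like cells of IPP by cluster (horizontal) and state (colour), with exact 95% Poisson intervals. BANK1 is high in all 3 states of the CCR7-led cluster (174 to 203 CPM) and at or near 0 in the ZNF70-led cluster, and BCL6 is the reverse.

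Cells with BANK1 and cells with BCL6 were largely separate. In IPP 291 B-like cells had BANK1 only, 389 had BCL6 only, 28 had both and 459 had neither. With each cell thinned to 2000 UMIs, BCL6 was seen in 1 of 152 cells with BANK1, 0.658% (0.0167 to 3.61), and in 153 of 960 cells without it, 15.9% (13.7 to 18.4). In nondividing cells alone the counts were 1 of 136 and 67 of 578, the latter 11.6% (9.10 to 14.5). POU2AF1 was seen in 18.4% of thinned cells with BANK1 (12.6 to 25.5) and 40.3% of those without (37.2 to 43.5). CD79B was seen in 67.8 and 78.5% of these cells. The 28 unthinned cells with both genes had a median depth of 10991.5 UMIs, against 7237 for BANK1 only and 8406 for BCL6 only. Without thinning, overlap was more common among cells with BANK1 in the deeper dividing cells. There 12 cells had both, at a median of 28789.5 UMIs, beside 42 with BANK1 only and 246 with BCL6 only. In nondividing cells 16 had both, beside 249 with BANK1 only and 143 with BCL6 only. After thinning, the 1 cell with both was nondividing.

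Genes that define the states, and others, also differed between these cells. CCR7 and KLF2, on which the states rest, stood at 189 and 151 CPM in cells with BANK1 only and at 15.3 and 17.6 CPM in cells with BCL6 only. Of the germinal centre genes outside the rule, MEF2B was at 28.6 against 226 CPM, and RGS13 at 0.376 against 132 CPM on 1 UMI and 613 UMIs. Across the 1167 cells, which share 1 library, Pearson's r of normalised log values was -0.32 for BANK1 and BCL6, -0.27 for BANK1 and POU2AF1, 0.26 for POU2AF1 and BCL6, and 0.30 for CD79B and MS4A1. These weak values in sparse counts are given as a description only.

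**Figure D5:**
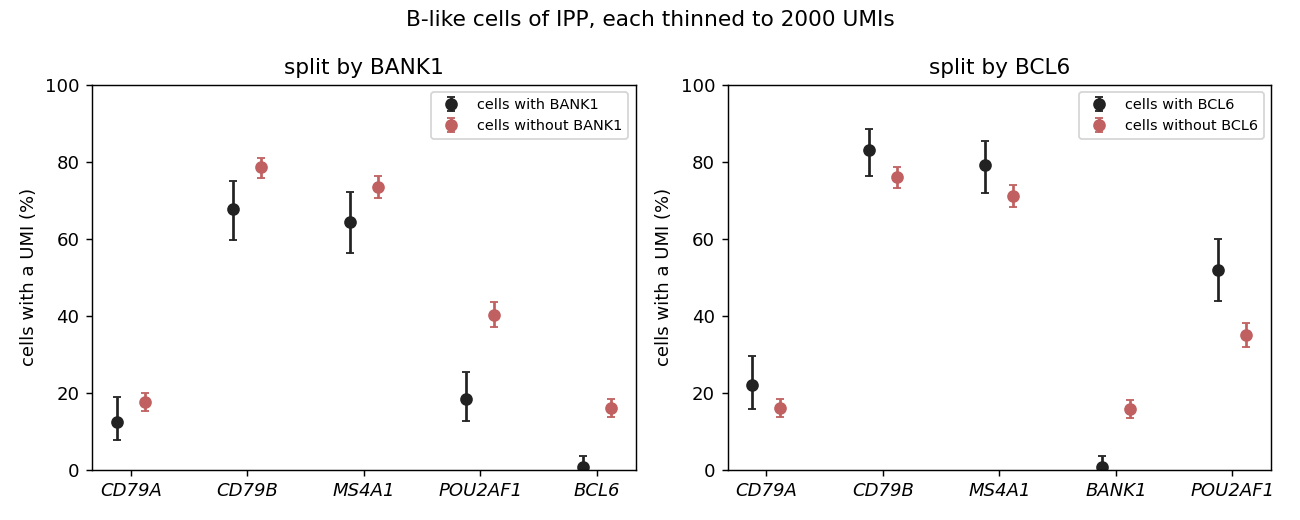
Share of IPP B-like cells with a UMI of each other gene (vertical, %), split by whether the cell had BANK1 (left; 152 and 960 cells) or BCL6 (right; 154 and 958 cells), after thinning each cell to 2000 UMIs, with exact 95% binomial intervals. At this depth BCL6 is seen in 0.658% of cells with BANK1, and BANK1 in 0.649% of cells with BCL6.

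RNA of T, epithelial and myeloid cells was present in the B-like cells of IPP, and the summed level of each marker list was lowest in dividing cells. T or innate lymphoid markers summed to 430, 448 and 604 CPM in dividing cells, cells with CCR7 or KLF2 and cells with neither, with 18, 18 and 19 of 19 markers detected and CD4 at 0 in the first 2 states. Epithelial markers summed to 204, 245 and 301 CPM, with OLFM4 at 0 in all 3 states. Myeloid markers summed to 60.4, 166 and 175 CPM, with 12, 14 and 10 of 16 detected and XCR1 and S100A8 at 0 in all 3 states, so they were lowest in dividing cells, as BANK1 was. The part of myeloid RNA in the BANK1 levels was not tested. Any CD3 gene was seen in 8.91, 6.37 and 7.51% of the cells. With those cells left out, the log2 differences between dividing and nondividing cells were 1.31 for BCL6 and -1.92 for BANK1, against 1.30 and -1.93 with them.

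The B-like cells of NoPP were few, and 2 of the 6 genes differed at least 2-fold from IPP over all B-like cells. CD79A was 2.64-fold higher in IPP (1.50 to 5.13), at 76.1 against 28.9 CPM, the latter on 12 UMIs. POU2AF1 was 2.20-fold higher (1.66 to 2.98), at 259 against 118 CPM. MS4A1 was 1.46-fold lower in IPP, at 740 against 1080 CPM, with 21.6% of its NoPP UMIs in 1 cell. BCL6 was at 95.4 and 91.4 CPM, BANK1 at 70.9 and 79.4 CPM, and CD79B at 750 and 796 CPM, with ratios whose intervals include 1. With cells taken by the gate on single cells, all 6 were at least 2-fold higher in IPP. MS4A1, at a log2 difference of 1.45, turned in direction, with CD79B at 1.79, BANK1 at 1.02 and BCL6 at 2.67. The gate takes cells of any class, and its markers were not confined to B-like cells, with BLNK at 79.3 CPM in epithelial cells of IPP. The part of non-B cells in the gated values was not tested. The background was 2.42% of 2852 genes, 0.806% higher in IPP and 1.61% lower.

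Some genes of stress and activation, and RNA of other cells, differed between the regions as well, and their part in these differences was not tested. EGR1, an immediate early gene, stood at 25.5 CPM in the B-like cells of IPP and 113 CPM in those of NoPP, the heat shock gene HSP70.2 at 34.6 and 147 CPM, and CD69, an early activation gene, at 97.5 and 320 CPM. The metallothionein gene MT1A ran the other way, at 444 CPM in IPP and 113 CPM in NoPP. Of 9 activation genes compared, 7 stayed under 2-fold. KLF2, on which the states in part rest, was 3.11-fold lower in IPP (2.56 to 3.74), at 98.3 against 305 CPM. One cell held 20.5% of its NoPP UMIs. The state with CCR7 or KLF2 may therefore not hold like cells in the 2 regions, which was not tested. Of 6 genes of resting and recirculating cells compared, KLF2 and TXNIP were lower in IPP and 4 stayed under 2-fold. APOA1, an enterocyte lipoprotein gene, stood at 62.1 CPM in IPP and 14.4 CPM in NoPP on 6 UMIs. In NoPP, T or innate lymphoid markers summed to 336 CPM in dividing cells (9 of 19 detected), 916 CPM with CCR7 or KLF2 (16 of 19) and 478 CPM with neither (6 of 19), with CD4, ZAP70 and KLRK1 at 0 in all 3 states. Epithelial markers summed to 97.7, 224 and 281 CPM there, with 5, 10 and 4 of 16 detected and OLFM4 at 0 in all 3 states. Myeloid markers summed to 70.5, 99.7 and 113 CPM, with 3, 5 and 1 of 16 detected and C1QA and XCR1 at 0 in all 3 states.

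The CD79A difference had the same direction in each state, at 61.4 against 16.3 CPM in dividing cells, 88.1 against 31.2 CPM with CCR7 or KLF2 and 105 against 56.3 CPM with neither. The NoPP values rest on 3, 5 and 4 UMIs, and the interval of the last ratio includes 1 (0.721 to 6.95). Other genes differed by region within a state. BCL6 was 3.73-fold lower in IPP (1.87 to 6.93) among nondividing cells with CCR7 or KLF2, on 54 and 13 UMIs, although it was level over all B-like cells. The cluster mix of this state also differed, with 352 of 377 IPP cells and 19 of 24 NoPP cells in the CCR7-led cluster, where BCL6 was low. The part of this mix in the BCL6 difference was not tested. POU2AF1 was 2.48-fold higher in IPP among dividing cells (1.63 to 3.97), where BANK1 was 2.03-fold lower (1.03 to 3.62) on 12 NoPP UMIs, 91.7% of them in 1 cell. MS4A1 was 1.62-fold lower in IPP among dividing cells, where 1 NoPP cell held a large part of its UMIs, as given below. It was 1.76-fold lower among those with neither. Among nondividing cells, 1 of the 6 genes passed 2-fold, CD79A at 2.46-fold (1.28 to 5.42), where 5.24% of 2729 genes did, 2.27% higher in IPP and 2.97% lower. POU2AF1 was 1.79-fold higher there (1.22 to 2.73). With a mitochondrial limit of 10%, the log2 difference of CD79A was 0.93 over all B-like cells and 0.87 over nondividing ones, under the 2-fold line.

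Within NoPP the states could be read only roughly. BCL6 was at 119 CPM in 14 dividing cells, 81.0 CPM in 24 cells with CCR7 or KLF2 and 42.2 CPM in 17 with neither, on 22, 13 and 3 UMIs. BANK1 was at 65.1, 93.5 and 84.4 CPM, and the first value rests on 12 UMIs. One dividing cell held 45.5% of the 213 MS4A1 UMIs of that state. Of the 12 NoPP ratios between states, those of CD79B in both contrasts, and of MS4A1 and POU2AF1 between CCR7 or KLF2 and neither, had intervals apart from 1, all 4 in the direction seen in IPP.

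In the 12 B-like cells of JEJ, CD79A was at 61.0 CPM (22.4 to 133), CD79B at 671 CPM (519 to 853), MS4A1 at 1403 CPM (1178 to 1657), BANK1 at 173 CPM (101 to 277), POU2AF1 at 152 CPM (85.3 to 251) and BCL6 at 40.7 CPM on 4 UMIs. One cell held 60.9% of the MS4A1 UMIs. The single B-like cell of DUOD had 8 UMIs of CD79B, 2 of MS4A1, 1 of POU2AF1 and 0 of the other 3 genes.

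Antibody-secreting cells are the end stage of the B lineage, and 83 were found in IPP, 3 in NoPP and 2 in JEJ. CD79A was 4.61-fold higher in the 83 cells than in the B-like cells of IPP (3.99 to 5.31), at 351 against 76.1 CPM. POU2AF1 was at 253 against 259 CPM, with a ratio of 0.978 (0.838 to 1.13). MS4A1 was 2.23-fold lower (1.96 to 2.54) and CD79B 1.95-fold lower (1.74 to 2.21). BANK1 was 3.26-fold lower on 16 UMIs, a log2 difference of -1.70, but 0.69 at a mitochondrial limit of 10%. BCL6 was at 5.44 CPM against 95.4 CPM, 17.5-fold lower (6.83 to 64.5), and its 4 UMIs all lay in 1 cell.

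Of the 6 genes 4 thus passed 2-fold, where 42.7% of 2843 genes did, 10.4% higher and 32.3% lower, so the count is near the background. The median log2 difference was -1.06 over the 6 genes and -0.68 over all genes compared. Of 21 receptor signalling genes, CD79A and CD81 were higher and 11 were lower, SYK at 44.9 against 197 CPM and CD22 at 42.2 against 89.4 CPM among them. Of 17 B lineage transcription factor genes, PRDM1, XBP1 and IRF4, which drive secretion, were higher and 9 were lower, PAX5 at 51.7 against 225 CPM and BCL6 among them. All 14 antibody secretion genes compared were higher, but 10 of them also named the cells. JCHAIN, which joins IgA and IgM chains, stood at 259-fold the B-like level.

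The secreting cells were split by MS4A1 after its values were seen. In the 53 with MS4A1, CD79A was at 428 CPM (369 to 495), CD79B at 445 CPM (384 to 512), PAX5 at 74.1 CPM and POU2AF1 at 262 CPM. In the 30 without, CD79A was at 241 CPM (189 to 303), CD79B at 297 CPM (239 to 365), PAX5 at 19.8 CPM and POU2AF1 at 241 CPM. CD79A was above the B-like level of 76.1 CPM in both.

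The genes most like each of the 6 were ranked by Pearson's r of log2(CPM + 10) over 14 groups of cells, each a class or B cell state in 1 region with at least 50 cells. The groups share libraries, and 5123 genes were ranked. CD79A was most like MZB1 (r = 0.979), DERL3 and PDGFD. CD79B was most like MS4A1 (0.999), with POU2AF1 also among its 3 nearest, and MS4A1 was most like CD79B, PAX5 and POU2AF1. BANK1 was most like PHACTR1 (0.985), CD40 and CRHBP, POU2AF1 like ZNF70 (0.990), EAF2 and MS4A1, and BCL6 like TOPBP1 (0.966), MCPH1 and RPRD1B. Between members, r was lowest for CD79A and BCL6 (0.514) and for BANK1 and BCL6 (0.540).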

How the data were processed

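Droplet-based single-cell RNA sequencing counts were used as deposited. The UMI counts were made with Cell Ranger, version 4.0.6 per the submitters' processing notes; the genome build is not given in the sources used here. The authors deposited 1 matrix of all barcodes per region, which pools 4 titles.

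Barcodes with at least 1000 UMIs, 500 genes and at most 25% mitochondrial UMIs were kept. Left out were 121 barcodes with at least 10 times more UMIs in another library, and 133 doublets (the highest Scrublet scores at 0.8% per 1000 cells). Clustering used scanpy 1.11.5: normalisation to 10000, 2000 variable genes without the 6 members, 30 components, 20 neighbours and Leiden resolution 1. Clusters were named from at least 3 markers, members excluded, and all 24 were named. CPM has exact Poisson intervals, shares Clopper-Pearson intervals and ratios exact conditional intervals, with scipy 1.17.1. They count UMIs as independent, so they are too narrow where 1 cell holds many UMIs. No test was run, since cells are not replicates. A gene was compared at 50 CPM or more in 1 group and counted at a 2-fold difference. Genes without a symbol stayed in. Only the ratios and their intervals were tested on simulated data. Those counts were independent Poisson draws, as the intervals assume, so UMIs gathered in single cells were not covered.

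Named genes were the 6 members, list genes past 2-fold and the 3 genes most like each member; SYK was added, as were the clusters with BANK1, BCL6 or CD79A outside B cells. The 5 largest differences of each comparison, also in the rule, are not printed as a set, and some of their genes, such as APOA1 and MT1A, are named above. The members and lists were chosen with earlier results of these data known. Results for some genes are not reported here.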

Additional observations from a re-analysis of the deposited data

Results flagged for a closer look

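For 2 genes a difference between B cell states ran one way in IPP and the other in NoPP, with neither difference between regions tested. BCL6 in nondividing cells with CCR7 or KLF2 over those with neither had a log2 ratio of -2.07 in IPP and 0.94 in NoPP. The NoPP value rests on 13 and 3 UMIs, with an interval of -0.92 to 3.39 that includes 0 and does not reach the IPP value. The cells with CCR7 or KLF2 differed in cluster mix, with 352 of 377 in IPP and 19 of 24 in NoPP in the CCR7-led cluster, and the part of this mix was not tested. MS4A1 in dividing over nondividing cells had a log2 ratio of -0.11 in IPP and 0.18 in NoPP, where 1 cell held 45.5% of the UMIs of the dividing cells. The NoPP interval, -0.09 to 0.45, overlaps that of IPP, -0.18 to -0.05.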

How the results depend on the processing

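Every comparison was recomputed under 14 or 15 other settings, 1 of them chosen after seeing the data (each gene without the cell that holds most of its UMIs). Of 168 recomputed values of the 12 differences past 2-fold, 167 kept their sign and 156 stayed past 2-fold. The number of genes past 2-fold stayed at or within 1.5 times 2 for dividing against nondividing cells and 3 for CCR7 or KLF2 against neither, and BANK1 and BCL6 passed in both under all 14. For IPP against NoPP over all B-like cells it was 2, but 1 at a mitochondrial limit of 10%, by the mean of the cells' own CPM and after thinning, and 6 with B cells taken by a gate on single cells, all higher in IPP, so that MS4A1, CD79B and BANK1 turned. Within IPP the gate also turned differences under 2-fold, CD79A, CD79B and MS4A1 to log2 ratios of 0.89, 0.46 and 0.42 for CCR7 or KLF2 against neither, and CD79B and MS4A1 to 0.03 and 0.29 for dividing against nondividing cells. Over nondividing cells the IPP against NoPP number was 1, but 0 at the 10% limit, 5 with the gate, and 2 with a division threshold of 1 or 6 UMIs or without the highest cell. For antibody-secreting cells it was 4, but 2 at the 10% limit, where BANK1 turned to a log2 ratio of 0.69. The dividing share in IPP was 34.6%, but 25.2% with the gate, 47.1 and 28.0% at 1 and 6 UMIs and 18.8% after thinning; in NoPP it was 25.5%, but 6.38% with the gate and 40.0% at 1 UMI. The causes were not tested. Depth limits NoPP, where CD79A rests on 12 UMIs. No paired analysis was possible because the barcodes carry no title and each region is 1 matrix.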
